A study of Mus musculus with 4 samples.

Results

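The genes described here are Pou5f1, Sox2, Nanog, Sall4, Utf1, Foxd3, Lin28a, Dppa5a, Dppa2 and Dppa4. They were listed as core and general pluripotency genes, apart from the lists of naive and primed markers. That name is a label of the list and does not describe how each member behaved in these data. The set was chosen by name, and its 10 genes were matched by Ensembl identifier among the 37620 genes of the count table. All 10 are among the 15462 genes left after the low-expression filter of the study. RNA-seq was done on mouse R1 embryonic stem cells (ESCs), a line of the 129/Sv strain, that were wild type (WT) or Cripto knockout (KO), and Cripto is the Nodal co-receptor encoded by Tdgf1. Both genotypes were sequenced in serum with leukaemia inhibitory factor (serum/LIF), where they are ESCs, and after 6 days in a culture called F/A. F/A was N2B27 medium that held basic fibroblast growth factor and 20 ng/ml of Activin A. It is used to turn ESCs into epiblast stem cells (EpiSCs), and the study reported that this transition was impaired in Cripto KO cells. There was 1 library for each of the 4 groups, so no spread between cultures could be measured and no comparison carries a test. The study worked with a pair of independent KO clones, and the labels do not say which clone gave the KO libraries.

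Pluripotent cells are held in their state by a small network of factors that bind shared enhancers and keep each other's genes on. Oct4, the product of Pou5f1, and Sox2 bind DNA side by side, and Nanog acts with them to hold back differentiation. ESCs resemble the epiblast before implantation (naive), whereas EpiSCs resemble the epiblast after implantation (primed) and are known to keep Oct4 while most naive factors are silenced.

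The 4 libraries held 15230856 to 17315442 raw counts. In the Cripto KO F/A library only 3 of 18700 genes with counts had an odd count (0.0160%), against 53.1% to 53.6% in the other libraries, so its counts were divided by 2 wherever counting error was computed and its detection limit was set to 6 raw counts in place of 3. Tdgf1 had 18714 counts in WT serum/LIF, 945 in Cripto KO serum/LIF, 1572 in WT F/A and 86 in Cripto KO F/A, which is 17.5-fold lower in KO than in WT cells in serum/LIF and 17.8-fold lower in F/A. A ratio is given here from the full quantile-normalised values, with 0 replaced by 0.5, and a gene is called higher or lower when it differs by at least 2-fold. A level is given in raw counts or in cpm, the raw counts per 1000000 counts of the library. An interval is the 95% Clopper-Pearson interval of the ratio of raw counts scaled by library totals. It covers counting error only, and since its scale differs, the normalised ratio of an abundant gene can lie just outside it.

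In WT cells 8 of the 10 genes were at least 2-fold lower after F/A than in serum/LIF, against 21.0% of the 15450 genes compared. Only Lin28a was at least 2-fold higher, against 22.1% of those genes, and Sall4 stayed under 2-fold. In Cripto KO cells, 9 genes were lower, against 19.4% of 15444 genes, and Lin28a was again the one that was higher, against 19.8%. The median log2 ratio of the 10 genes was −4.17 in WT and −4.32 in KO cells, where the medians of all genes compared were −0.08 and −0.07. With Dppa2, which had 0 counts in Cripto KO F/A, set to its bound of −7.35, the KO median was again −4.32. In these bulk libraries, fewer cells with a transcript and less of it per cell cannot be told apart. The genotypes differed far less. In F/A, Nanog, Utf1 and Foxd3 were at least 2-fold lower in KO than in WT cells, 3 of the 9 genes with a measurable ratio against 5.39% of 15001 genes, and none was higher, against 4.03%. In serum/LIF none of the 10 reached 2-fold in either direction, against 2.53% of 15158 genes higher and 2.53% lower. The median log2 ratio of KO to WT over the genes with a ratio was −0.60 in F/A and 0.03 in serum/LIF, beside 0.01 and 0.00 over all genes. Each library enters 2 of the 4 comparisons, so their values are not independent.

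**Figure D1:**
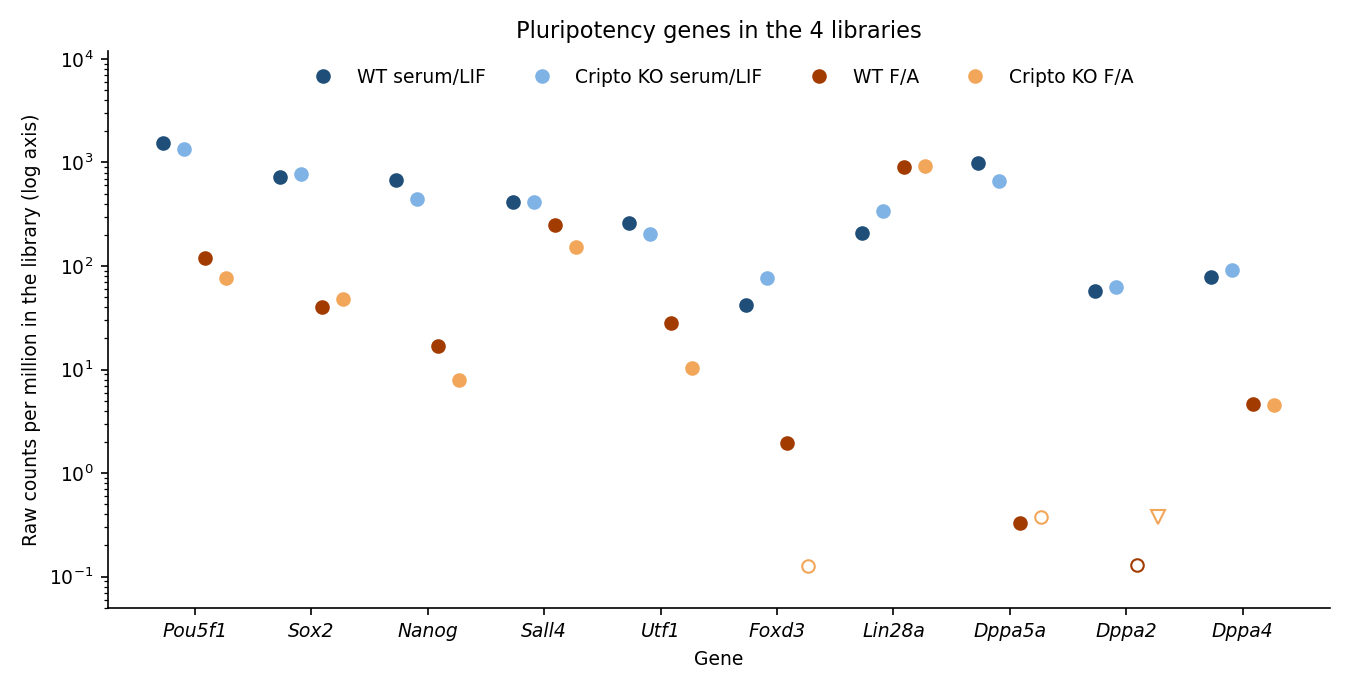
Level in each library as raw counts scaled to library size (cpm, log axis) for the 10 genes, 1 point per library, to be compared within a gene. Open points are at or under the detection limit of their library, and the triangle marks 0 counts, drawn at the limit of 0.381 cpm. Lin28a is the one gene whose F/A points lie above its serum/LIF points.

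The counts of the 10 genes together made up 0.499% of the WT serum/LIF library (95% exact interval 0.496 to 0.502), 0.443% of Cripto KO serum/LIF (0.440 to 0.446), 0.137% of WT F/A (0.135 to 0.139) and 0.122% of Cripto KO F/A (0.120 to 0.124). Lin28a gave 4.14% and 7.70% of those counts in WT and KO serum/LIF, and 66.5% and 75.4% in WT and KO F/A. Without Lin28a the sum was 4780 cpm in WT serum/LIF, 4090 in Cripto KO serum/LIF, 458 in WT F/A and 300 in Cripto KO F/A. Most counts of the set in F/A were thus those of Lin28a.

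Pou5f1 (ENSMUSG00000024406) lies on the plus strand of chromosome 17 from 35642982 to 35647721 in NCBIM37 (mm9), the build of the files. It had 26857 raw counts in WT serum/LIF, 21995 in Cripto KO serum/LIF, 1810 in WT F/A and 1216 in Cripto KO F/A. After F/A the transcript was 12.7-fold lower in WT cells (log2 ratio −3.67) and 17.4-fold lower in KO cells (−4.12). The WT value moved to −3.07 when the running median over transcript length, read at the gene's median length of 496 bases, was subtracted. Both F/A libraries still held far more Pou5f1 counts than the detection limit. KO cells had 1.52-fold less Pou5f1 than WT cells in F/A (log2 ratio −0.60, counting interval 1.40 to 1.69-fold) and 1.11-fold less in serum/LIF. With the same running median subtracted, the F/A log2 ratio was −0.90.

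Sox2 (ENSMUSG00000074637), the HMG-box partner of Oct4, has a single exon on the plus strand of chromosome 3 from 34548927 to 34551383. Its counts were 12560 in WT serum/LIF, 12669 in Cripto KO serum/LIF, 612 in WT F/A and 750 in Cripto KO F/A. F/A values were 18.0-fold lower than serum/LIF values in WT cells (log2 ratio −4.17) and 16.3-fold lower in KO cells (−4.02). Unlike Pou5f1 and Nanog, Sox2 was not lower in KO than in WT cells in either culture: the log2 ratio was 0.26 in F/A, with a counting interval of 1.04 to 1.35-fold, and 0.11 in serum/LIF. The gene lies inside Sox2ot, a long non-coding RNA on the same strand, which had 291 counts in WT serum/LIF, 264 in Cripto KO serum/LIF, 8 in WT F/A and 6 in Cripto KO F/A.

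Nanog (ENSMUSG00000012396) has 4 exons in its longest annotated transcript and lies on the plus strand of chromosome 6 from 122657507 to 122664651. It had 11633 counts in WT serum/LIF, 7270 in Cripto KO serum/LIF, 259 in WT F/A and 126 in Cripto KO F/A. Of the 3 core genes it differed most between the cultures, being 40.3-fold lower in F/A in WT cells (log2 ratio −5.33) and 55.8-fold lower in KO cells (−5.80). It was also lower in KO than in WT cells in both cultures, by 2.08-fold in F/A (log2 ratio −1.05, counting interval 1.61 to 2.84-fold) and by 1.5-fold in serum/LIF (log2 ratio −0.59, 1.46 to 1.55-fold). The F/A value lies close to the 2-fold threshold.

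Ratios between the core genes within a library do not depend on library size. Sox2 counts per kb of transcript were 0.943 times those of Nanog in WT serum/LIF (95% interval 0.920 to 0.967) and 1.52 times in Cripto KO serum/LIF (1.48 to 1.57). In F/A the ratio was 2.06 in WT (1.78 to 2.40) and 5.20 in KO cells (3.97 to 6.90). The ratio was higher in F/A than in serum/LIF and higher in the KO than in the WT libraries, and the 4 counting intervals do not overlap. Pou5f1 to Nanog had the same order, with 9.32 and 12.2 in WT and KO serum/LIF and 28.2 and 39.0 in WT and KO F/A, although the intervals in F/A (24.8 to 32.3 and 30.0 to 51.3) overlap. Pou5f1 to Sox2 was 9.88 and 8.02 in WT and KO serum/LIF and 13.7 and 7.49 in WT and KO F/A, lower in KO cells in both cultures. The size of a ratio to Pou5f1 depends on the transcript length taken for it, the comparison between libraries does not. With the longest annotated transcripts, chosen after the values were seen, Pou5f1 to Sox2 was 3.90, 3.17, 5.39 and 2.96 and Pou5f1 to Nanog 3.79, 4.97, 11.5 and 15.8 in WT serum/LIF, KO serum/LIF, WT F/A and KO F/A.

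**Figure D2:**
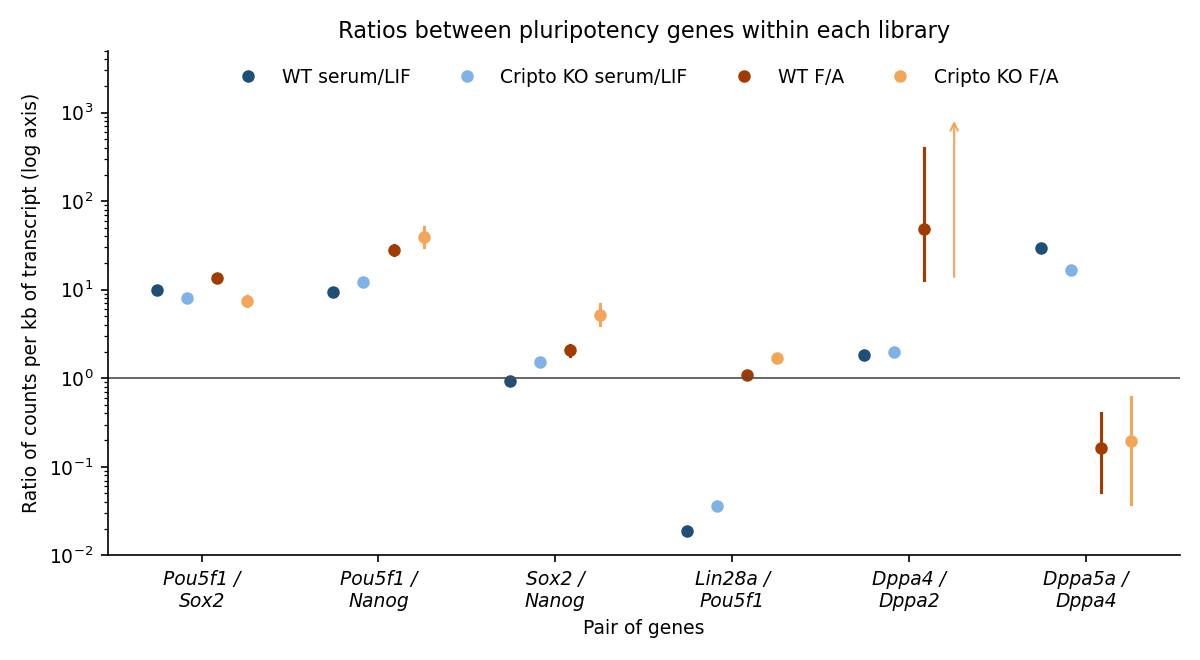
Ratio of counts per kb of median transcript length between pairs of the genes in each library (log axis), with 95% counting intervals. The Sox2 to Nanog ratio goes from 0.943 in WT serum/LIF to 5.20 in Cripto KO F/A, and the arrow marks the Dppa4 to Dppa2 ratio in Cripto KO F/A, which has only a lower bound because Dppa2 had 0 counts.

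Promoters of the core genes and of Lin28a are shown because the core genes were lower in F/A and Lin28a was the one gene of the set that was higher. RefSeq windows (table build GRCm38.p6) of 250 bases before and 50 after the transcript start were found for Pou5f1, Sox2, Nanog, Utf1, Lin28a and Foxd3, 6 of the 10 genes, and each matched a single place on its chromosome in NCBIM37. They were searched on both strands for the octamer ATGCAAAT bound by Oct4, for its core ATGCAAA, which every octamer contains, and for ACAATG, a Sox-type sequence. The 250 bases before the start are given 5′ to 3′ on the strand of the gene, with matches in capitals and NCBIM37 coordinates.
Pou5f1, chr17:35642727-35642976, plus strand: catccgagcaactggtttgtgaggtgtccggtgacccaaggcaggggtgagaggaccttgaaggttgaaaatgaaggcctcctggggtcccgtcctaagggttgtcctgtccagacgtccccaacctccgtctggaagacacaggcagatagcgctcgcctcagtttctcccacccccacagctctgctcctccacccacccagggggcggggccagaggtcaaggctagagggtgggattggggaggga
Sox2, chr3:34548667-34548916, plus strand: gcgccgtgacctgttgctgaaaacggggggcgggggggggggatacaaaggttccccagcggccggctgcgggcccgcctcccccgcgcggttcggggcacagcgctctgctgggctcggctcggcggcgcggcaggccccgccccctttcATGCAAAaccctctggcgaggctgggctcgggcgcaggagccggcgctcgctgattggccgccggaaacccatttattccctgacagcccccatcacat
Nanog, chr6:122657257-122657506, plus strand: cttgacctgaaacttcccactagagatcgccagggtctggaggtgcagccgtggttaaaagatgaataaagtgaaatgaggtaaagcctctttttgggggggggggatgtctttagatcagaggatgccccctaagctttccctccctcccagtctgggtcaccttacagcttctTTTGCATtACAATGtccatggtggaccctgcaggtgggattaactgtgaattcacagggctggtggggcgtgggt
Lin28a, chr4:133574732-133574981, minus strand: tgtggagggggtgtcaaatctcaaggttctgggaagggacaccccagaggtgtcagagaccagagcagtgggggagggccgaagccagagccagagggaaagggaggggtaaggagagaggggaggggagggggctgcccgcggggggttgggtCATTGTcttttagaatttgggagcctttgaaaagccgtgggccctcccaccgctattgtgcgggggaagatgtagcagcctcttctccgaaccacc

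In Nanog the octamer core lies on the opposite strand at −75 to −69 from the start and ACAATG on the gene's strand at −67 to −62, so that a single base separates them. That pair within 10 bases was held by 1 of the 6 genes, against 0.211% of the 27025 genes with a window. Sox2 holds the core at −99 to −93. The core was found in 2 of the 6 genes, against 5.24% of all genes, and the full octamer in none, against 1.97%. ACAATG was found in 3 of the 6, namely Nanog, Lin28a on the opposite strand at −96 to −91 and a second, downstream start of Pou5f1, against 14.3% of all genes. The printed Pou5f1 window holds none of these letters, and Lin28a, which was higher in F/A, holds a Sox-type match as Nanog does, which was lower.

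Sall4 (ENSMUSG00000027547), a zinc-finger protein that works with Oct4 and with histone deacetylase complexes, lies on the minus strand of chromosome 2 from 168573832 to 168593443. Its counts were 7191 in WT serum/LIF, 6788 in Cripto KO serum/LIF, 3763 in WT F/A and 2386 in Cripto KO F/A. In WT cells it differed least of the 10 genes between the cultures, 1.74-fold lower in F/A (log2 ratio −0.80), and in KO cells it was 2.67-fold lower (−1.42). In F/A KO cells had 1.57-fold less than WT cells (counting interval 1.53 to 1.74-fold), whereas in serum/LIF the interval of the KO to WT ratio, 0.972 to 1.04, includes 1 and its sign changed with the scaling. An antisense transcript, Gm14261, overlaps its 5′ end and had 431, 405, 279 and 174 counts in the same order, and since the sources do not say whether counting used the strand, reads of the pair cannot be told apart.

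Utf1 (ENSMUSG00000047751), a chromatin-bound factor of undifferentiated cells and a classical target of Oct4 and Sox2, lies on the plus strand of chromosome 7 from 147129688 to 147131011. It had 4541 counts in WT serum/LIF, 3324 in Cripto KO serum/LIF, 426 in WT F/A and 162 in Cripto KO F/A. In WT cells it was 9.64-fold lower in F/A (log2 ratio −3.27) and in KO cells 20.1-fold lower (−4.33). KO cells had 2.70-fold less Utf1 than WT cells in F/A (log2 ratio −1.43, counting interval 2.14 to 3.49-fold) and 1.29-fold less in serum/LIF. As for Nanog, the KO value was the lower one in both cultures and the gap was wider in F/A.

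Foxd3 (ENSMUSG00000067261), a forkhead factor of the epiblast that later also marks neural crest, has a single exon on the plus strand of chromosome 4 from 99322990 to 99325362. It had 736 counts in WT serum/LIF, 1238 in Cripto KO serum/LIF, 30 in WT F/A and 2 in Cripto KO F/A. It was 22.1-fold lower in F/A in WT cells (log2 ratio −4.47) and 504-fold lower in KO cells, where the 2 counts leave an interval of 107 to 23700-fold. KO cells were 12.7-fold below WT cells in F/A (log2 ratio −3.67), with a counting interval of 2.58 to 632-fold. The 2 counts are under the detection limit of 6 in that library, and with 5 added to every value the log2 ratio was −2.29. In serum/LIF the order was the other way round, KO cells being 1.79-fold above WT cells (log2 ratio 0.84, 1.63 to 1.96-fold). Among 6 neural crest markers, with summed levels of 154 cpm in WT F/A and 222 in Cripto KO F/A against 9.82 and 11.6 in WT and KO serum/LIF, Pax3 had 68 and 132 counts in WT and KO F/A and Sox10 had 6 in each. Most of the F/A sums came from Ets1, with 1051 and 1432 counts in WT and KO F/A, Sox9, with 803 and 640, and Twist1, with 368 and 1050. Foxd3 was lower and the summed markers higher in F/A than in serum/LIF, and likewise in KO than in WT F/A. In serum/LIF both were higher in KO than in WT cells. The part of neural crest cells in the level of Foxd3 was not tested.

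Lin28a (ENSMUSG00000050966), an RNA-binding protein that blocks the maturation of let-7 microRNAs and is expressed in early embryonic cells, lies on the minus strand of chromosome 4 from 133559245 to 133574756. It had 3580 counts in WT serum/LIF, 5542 in Cripto KO serum/LIF, 13882 in WT F/A and 14480 in Cripto KO F/A. The gene was 4.54-fold higher in F/A in WT cells (log2 ratio 2.18) and 2.74-fold higher in KO cells (1.45). In serum/LIF KO cells had 1.61-fold more than WT cells (log2 ratio 0.69, counting interval 1.58 to 1.72-fold), while in F/A the KO to WT log2 ratio was −0.04 with an interval of 0.981 to 1.04 that includes 1, and turned positive under other scalings. Per kb of transcript, Lin28a stood at 0.0189 times Pou5f1 in WT serum/LIF and at 1.09 times in WT F/A, and at 0.0357 and 1.69 times in KO cells. With the longest transcripts these ratios were 0.0512 and 2.95 in WT and 0.0968 and 4.58 in KO cells. Gm13061, a non-coding transcript on the opposite strand that overlaps the 5′ end of Lin28a, had 371, 518, 1383 and 1408 counts in WT serum/LIF, Cripto KO serum/LIF, WT F/A and Cripto KO F/A, and reads of this pair cannot be told apart either.

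Of 17 genes of the Lin28 and let-7 axis, 6 were at least 2-fold higher in F/A in WT cells, 0 were lower and 11 were under 2-fold, where 22.1% of all genes were higher and 21.0% lower. In KO cells 7 were higher, 0 lower and 10 under 2-fold, beside 19.8% and 19.4% of all genes. The medians of the 17 were 0.70 and 0.31 on the log2 scale. Lin28b, the paralogue of Lin28a, had 363, 472, 1338 and 1630 counts in WT serum/LIF, Cripto KO serum/LIF, WT F/A and Cripto KO F/A, log2 ratios of 2.0 in WT and 1.77 in KO cells. Known let-7 targets differed among themselves. The chromatin protein Hmga2 had log2 ratios of 2.81 and 3.79 in WT and KO cells, the Arid3a factor 3.33 and 3.12, and the cyclin Ccnd2 5.83 and 5.13. The targets Mycn, with log2 ratios of −0.77 and −0.49, Ccnd1, with −0.74 and 0.68, and Hmga1, with 0.01 and 0.15, stayed under 2-fold. The enzymes Drosha and Dicer1, which cut microRNA precursors, had log2 ratios of −0.09 and 0.88 in WT cells and of −0.04 and 0.31 in KO cells. Between the genotypes Ccnd1 alone passed 2-fold, higher in KO cells in F/A (log2 ratio 1.09), where 4.03% of all genes were higher and 5.39% lower. In serum/LIF none of the 17 did, beside 2.53% of all genes higher and 2.53% lower. MicroRNAs themselves were not analysed here.

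**Figure D3:**
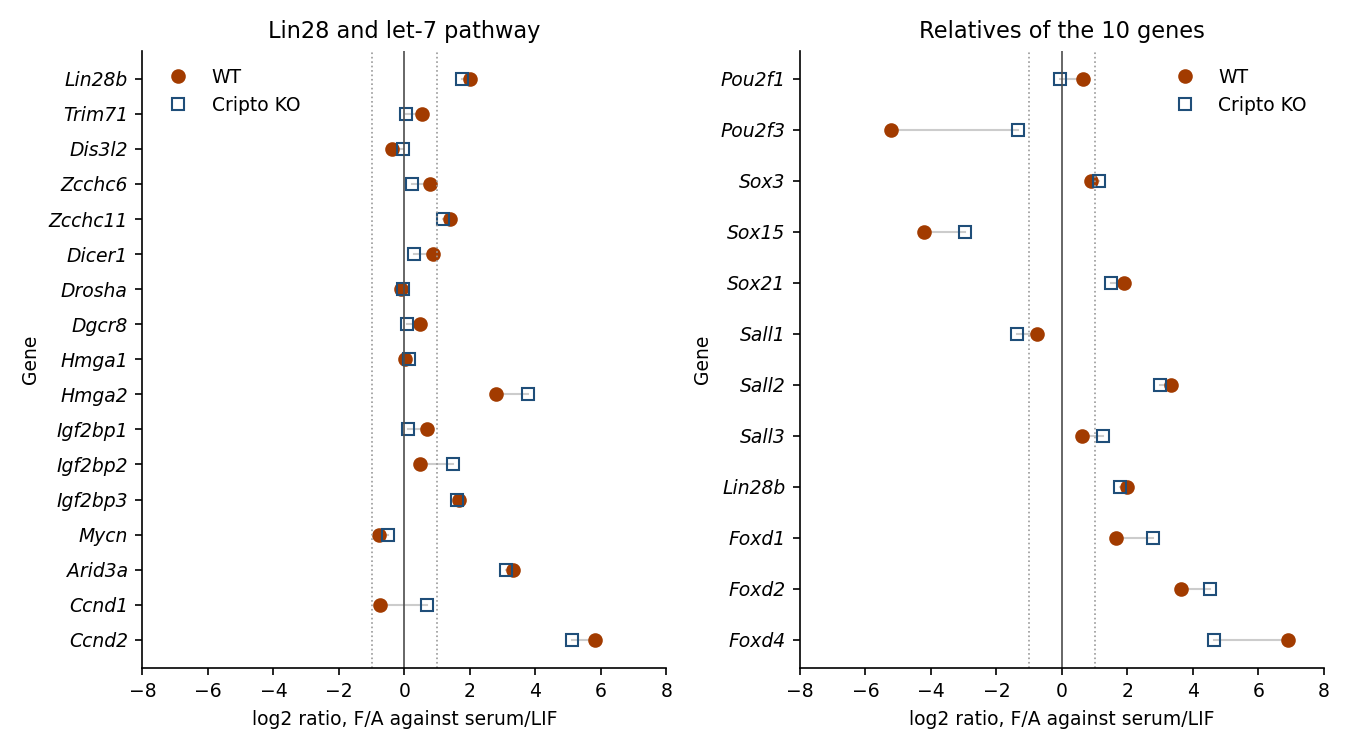
log2 ratio of F/A to serum/LIF in WT cells (filled circles) and Cripto KO cells (open squares) for the Lin28 and let-7 genes (left) and for the relatives of the 10 genes (right), with dotted lines at 2-fold. Lin28b, Hmga2, Arid3a and Ccnd2 lie to the right of the dotted line in both genotypes.

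Dppa5a (ENSMUSG00000060461), a small KH-domain RNA-binding protein of ESCs and germ cells, lies on the minus strand of chromosome 9 from 78214859 to 78215984. It had 16948 counts in WT serum/LIF, 10689 in Cripto KO serum/LIF, 5 in WT F/A and 6 in Cripto KO F/A. Its F/A counts were at or just above the detection limit. It was 2800-fold lower in F/A in WT cells (counting interval 1280 to 9180-fold) and 1330-fold lower in KO cells (590 to 8360-fold). Ranked over all genes compared, Dppa5a had rank 8 of 15450 from the lowest ratio in WT cells and rank 12 of 15444 in KO cells. In serum/LIF KO cells had 1.49-fold less Dppa5a than WT cells, and in F/A the interval of the KO to WT ratio, 0.18 to 5.97, is too wide to show a difference. The RNA-binding genes of the set, Dppa5a and Lin28a, thus differed in opposite directions between the cultures.

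Dppa2 (ENSMUSG00000072419) and Dppa4 (ENSMUSG00000058550) encode partner proteins with a SAP domain that bind chromatin together. They are neighbours on the plus strand of chromosome 16, Dppa4 from 48283848 to 48294405 and Dppa2 from 48310590 to 48319836, with 16184 bases between them. Dppa2 had 989 counts in WT serum/LIF, 1009 in Cripto KO serum/LIF, 2 in WT F/A and 0 in Cripto KO F/A. Dppa4 had 1351, 1495, 71 and 72 counts in the same order. Dppa2 was 424-fold lower in F/A in WT cells, with an interval of 120 to 3600-fold, and at least 163-fold lower in KO cells, while Dppa4 was 18.0-fold lower in WT cells (log2 ratio −4.17) and 19.7-fold lower in KO cells (−4.30).

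The adjacent genes therefore differed in how much lower they were. Dppa4 per kb was 1.84 times Dppa2 in WT serum/LIF (interval 1.70 to 2.0) and 2.0 times in KO serum/LIF (1.84 to 2.17), but 47.9 times in WT F/A (12.8 to 403) and more than 12.5 times in KO F/A. Between the genotypes neither gene differed by much: in serum/LIF the KO to WT ratio was 1.07 for Dppa2 (interval 0.994 to 1.19) and 1.15 for Dppa4 (1.09 to 1.27), and in F/A it was 1.05 for Dppa4 (0.638 to 1.49). With 2 and 0 counts in F/A, both within the detection limit, Dppa2 gets no ratio there. Of 7 genes known as downstream of Dppa2 and Dppa4 in 2-cell-like cells, 3 passed the filter. The germline genes Mael and Syce1 had 1158 and 1050 counts in WT serum/LIF, 541 and 739 in Cripto KO serum/LIF, 1 each in WT F/A, and 2 and 0 in Cripto KO F/A. Prmt6 had 534, 507, 543 and 598 counts in the 4 libraries in that order, and Zscan4c, Zscan4d, Zscan4f and Zfp352 were between 1 and 12 counts in serum/LIF and at 0 in F/A.

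**Figure D4:**
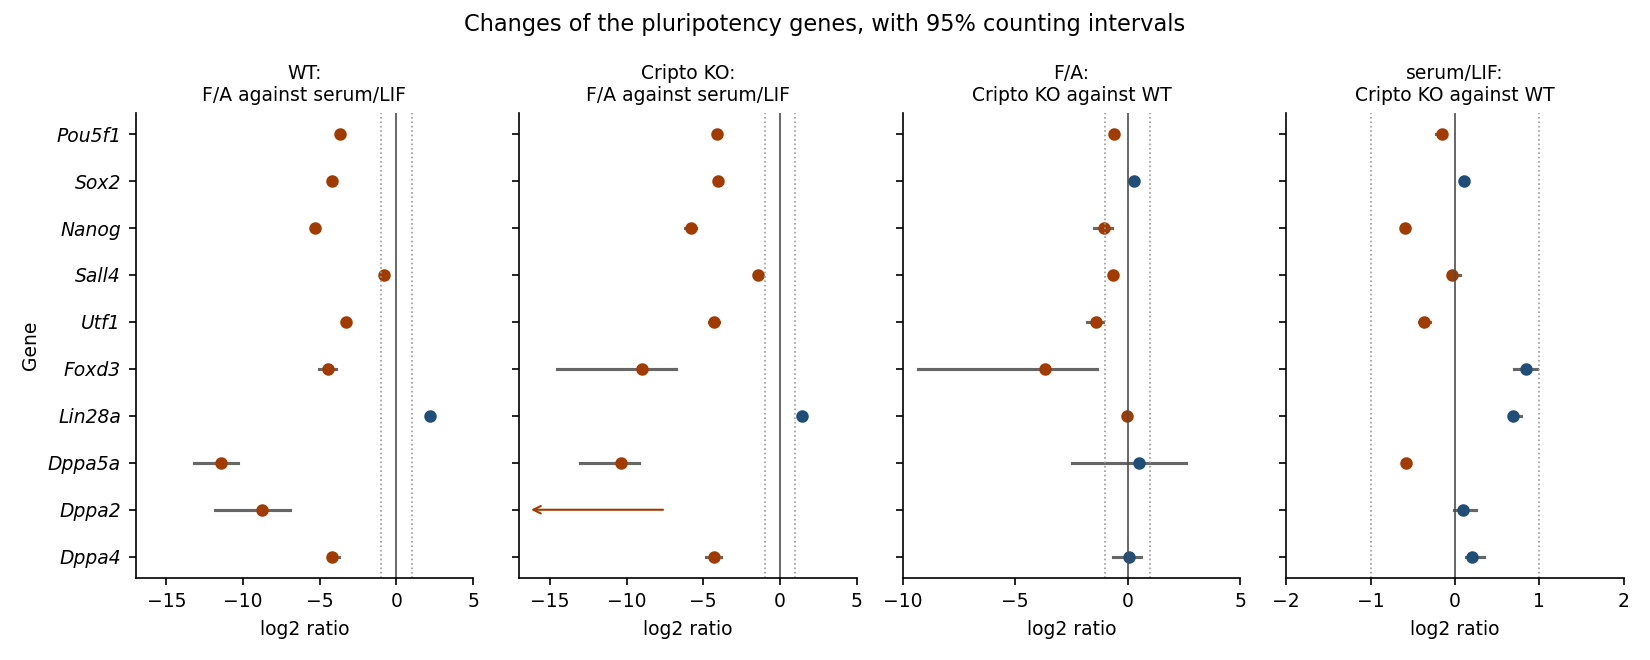
log2 ratio of the 10 genes in the 4 comparisons (points, blue above 0 and orange below) with 95% counting intervals (bars), dotted lines at 2-fold and a narrower axis in the last panel. The arrow is the lower bound for Dppa2 in Cripto KO cells, which has no ratio in F/A, and in serum/LIF all points lie between −0.59 and 0.84.

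Near-identical copies could take reads from some of the genes. Transcripts of the 10 genes were searched against the 37205 named genes for matches of at least 300 bases and 90% identity, and 4 of the 10 had one. Dppa5b matched Dppa5a over 585 bases at 98.3% identity and had 29, 11, 0 and 0 counts in WT serum/LIF, Cripto KO serum/LIF, WT F/A and Cripto KO F/A. Pseudogenes of Dppa2 held at most 1 count, and Gm14058, a pseudogene of Dppa4 with 99.4% identity, held at most 21. In F/A no copy of Dppa2, Dppa4 or Dppa5a held more than 2 counts. Foxd3 matched Foxd1 over 305 bases, and Foxd1 had 70, 58, 194 and 416 counts in the same order of libraries.

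Compared per kb of median transcript length, Pou5f1 was the most abundant of the 10 genes in serum/LIF, with 3130 cpm per kb in WT and 2730 in KO cells, followed by Dppa5a with 1580 and 1060. Foxd3 and Dppa2 were lowest, and their intervals overlap in Cripto KO serum/LIF. In F/A the leading places went to Sall4 (320), Lin28a (260) and Pou5f1 (240) in WT cells and to Lin28a (262), Sall4 (196) and Pou5f1 (156) in KO cells. The lowest were Foxd3, Dppa5a and Dppa2 in WT F/A, in that order, and Dppa5a, Foxd3 and Dppa2 in Cripto KO F/A, and the intervals of neighbours among them overlap. The median over the 7 annotated transcripts of Pou5f1, 496 bases, is far below its longest, 1347 bases, and that of Sall4, 773 bases, below 5073. With the longest transcript, chosen as a check after the values were seen, Dppa5a came before Pou5f1 in serum/LIF (1580 and 1150 in WT cells), Sall4 came at place 6 in WT serum/LIF, and Lin28a led in both F/A libraries, ahead of Pou5f1 at 88.2 in WT and 57.4 in KO cells.

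The response to F/A can be set side by side in the genotypes, which share no library in this comparison. The log2 change in KO cells minus that in WT cells was −0.45 for Pou5f1, 0.14 for Sox2, −0.47 for Nanog, −0.61 for Sall4, −1.06 for Utf1 and −0.73 for Lin28a. With the running median over transcript length subtracted, it moved to −0.85 for Pou5f1, −0.79 for Sall4 and −0.49 for Lin28a. For Pou5f1 and Sall4 that median was read at a length far below the longest transcript. The largest gap was that of Foxd3, −4.51, whose counting interval on the scale of library totals runs from −7.67 to −1.92, and it was −3.13 with 5 added to every value. For Dppa4 the difference was −0.13 and for Dppa5a 1.07, the latter resting on 5 and 6 counts in WT and KO F/A. The interval includes 0 for Sox2, Dppa4 and Dppa5a. In the remaining genes F/A left KO cells further from the serum/LIF level, except for Lin28a, whose ratio was smaller in KO cells, and Dppa2, for which no difference is given since it was within the detection limit in both F/A libraries.

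**Figure D5:**
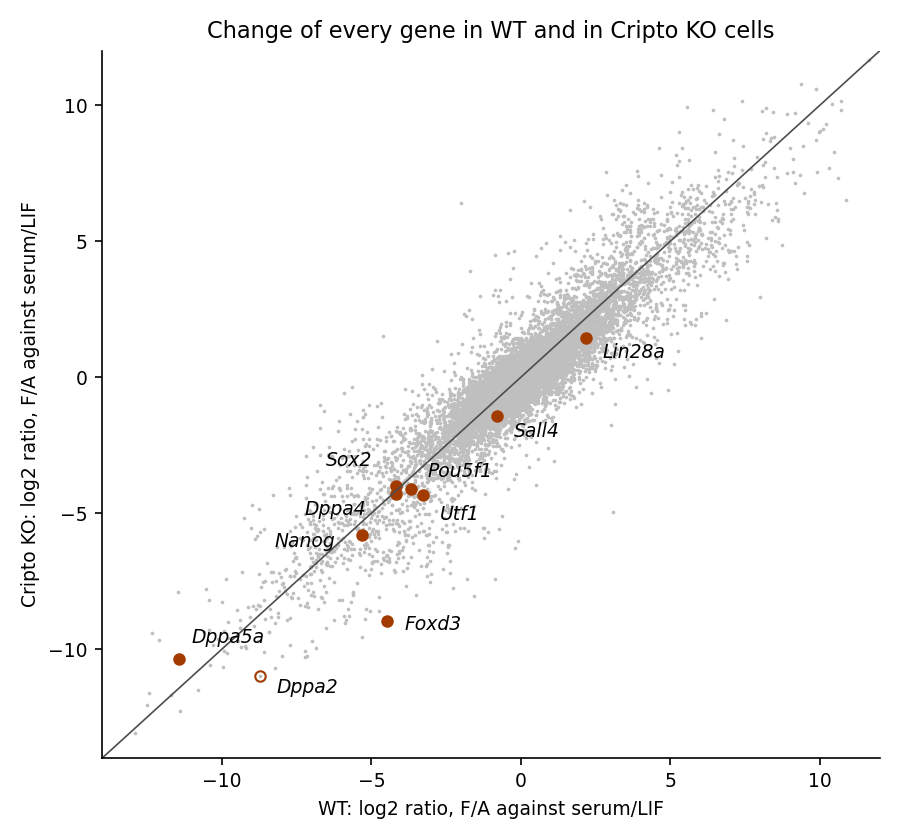
log2 ratio of F/A to serum/LIF in Cripto KO cells against that in WT cells for all genes with a measurable ratio in both (grey) and the 10 genes (orange), with the line of equal change. Foxd3 lies furthest below the line among the 10, with −4.47 in WT and −8.98 in KO cells, and Dppa2 is open because its KO value rests on 0 counts in F/A.

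Partners and targets of the core factors were divided. Of 24 such genes, 10 were at least 2-fold lower and 5 higher in F/A in WT cells, and 14 were lower and 3 higher in KO cells, with medians of −0.75 and −1.32 on the log2 scale. Over all genes 21.0% were lower and 22.1% higher in WT cells, and 19.4% and 19.8% in KO cells. Fgf4 and Gdf3, growth factor genes that Oct4 and Sox2 are known to activate, had 3293 and 1469 counts in WT serum/LIF and 15 and 10 in WT F/A, and 2549 and 1226 in Cripto KO serum/LIF and 24 and 8 in Cripto KO F/A. Mybl2, a cell cycle factor, had log2 ratios of −4.28 and −4.40 in WT and KO cells. The RNA-binding gene L1td1 had log2 ratios of −2.67 and −4.60 in WT and KO cells. In F/A 3 of the 24 were lower in KO than in WT cells and 0 higher, beside 5.39% and 4.03% of all genes. These were Tdgf1 (log2 ratio −4.15), L1td1 (−1.73) and the adhesion gene Cdh1 (−1.08). Tdgf1 is the knocked-out gene, so its lower value was set by the design and says nothing of the other genes. In serum/LIF Tdgf1 itself was the only 1 of the 24 past 2-fold, beside 2.53% of all genes lower and 2.53% higher.

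Of 12 relatives of the 10 genes that passed the filter, 6 were higher and 2 lower in F/A in WT cells, beside 22.1% and 21.0% of all genes, and 8 were higher and 3 lower in KO cells, beside 19.8% and 19.4%. Sall2, a relative of Sall4, had 87, 97, 768 and 798 counts in WT serum/LIF, Cripto KO serum/LIF, WT F/A and Cripto KO F/A, log2 ratios of 3.32 and 3.0. The Sox2 relative Sox21 was higher in both genotypes (1.90 and 1.51), and Sox15, which can stand in for Sox2 in ESCs, was lower (−4.20 and −2.95). Foxd1, the forkhead relative of Foxd3, was higher in F/A by 1.66 in WT and 2.79 in KO cells, and in F/A it was higher in KO than in WT cells by 1.05, where the log2 ratio of Foxd3 was −3.67. Foxd4, another forkhead relative, had 148 counts in WT F/A and 16 in Cripto KO F/A, a log2 ratio of −2.98, and for Foxd2 the counts were 27 and 106 (log2 ratio 1.96).

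The nearest genes along the chromosome were also read. Among the 18 flanking genes that are not members themselves, 10 were at least 2-fold lower and 1 higher in F/A in WT cells. Over all genes 21.0% were lower and 22.1% higher. In KO cells 8 were lower and 1 higher, beside 19.4% and 19.8%. The 18 include Dppa5b, a near-identical copy of Dppa5a, with 29 and 11 counts in WT and KO serum/LIF and 0 in F/A. Gm12688 and H2-Q10, also lower in both genotypes, had 3 and 16 counts in WT F/A and 2 and 8 in KO F/A. Ooep, an oocyte and embryo gene 7931 bases from Dppa5a, had 2594, 1641, 1 and 0 counts in WT serum/LIF, Cripto KO serum/LIF, WT F/A and Cripto KO F/A, and Morc1, a germline silencing gene on the far side of Dppa2 by 111513 bases, had 3241, 1993, 4 and 4. Kndc1, 2251 bases from Utf1, had log2 ratios of −2.86 and −3.56 and had a KO to WT log2 ratio of −1.17 in F/A, beside −1.43 for Utf1. Slc2a3, a glucose transporter gene 13175 bases from Nanog, was instead higher in F/A, by 1.34 and 1.51 in WT and KO cells. On either side of Sall4, Atp9a and Zfp64 had log2 ratios of −1.16 and −0.59 in WT cells, beside −0.80 for Sall4.

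Genes with the most similar pattern to the core factors were found by the distance between log2 values centred on their mean over the 4 libraries, among 12779 genes with a mean normalised value of at least 50. With 4 libraries, many genes share any pattern. Closest to Pou5f1 were ENSMUSG00000093516, which has no name in the annotation used here, at 0.10, and Dmrt1, a factor of the germline, at 0.11, followed by Gpat2, Atp1a4 and Cobl. The unnamed gene had 8682, 7247, 558 and 410 counts in WT serum/LIF, Cripto KO serum/LIF, WT F/A and Cripto KO F/A. It was outside the search for copies and overlaps, so whether it shares sequence or reads with Pou5f1 was not tested. Closest to Sox2 were Abcb1a at 0.14, Trim63, Gm15772, Ttpa and Stat4, and Dppa4 came next at 0.20. Closest to Nanog were Gm6792 at 0.27, Myo15b, Ampd3, Myo1g and 8030474K03Rik, and the Cripto KO F/A counts of these 5 were between 2 and 6, at or under the detection limit. The core genes did not lie nearest to each other: Sox2 was at place 73 from Pou5f1, with a distance of 0.67, and Nanog at place 497, with 1.73.

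Marker genes of the states and of other cell types also differed between the cultures. The 8 naive markers summed to 3620 and 3230 cpm in WT and KO serum/LIF and to 29.9 and 46.2 in WT and KO F/A. Most of the F/A sums came from Tbx3, with 290 and 536 counts in WT and KO F/A, and Klf4, with 103 and 158. Zfp42 (28 and 14), Klf2 (16 and 12), Esrrb (13 and 8) and Prdm14 (6 and 0) had fewer counts in KO F/A. In both genotypes 7 of the 7 that passed the filter were at least 2-fold lower, beside 21.0% of all genes in WT and 19.4% in KO cells. Nr0b1 and Dppa3 were at 0 in both F/A libraries. In WT and KO serum/LIF Nr0b1 had 4045 and 4300 counts, but Dppa3 only 10 and 13, and it did not pass the filter. The 9 primed markers summed to 205 and 272 in WT and KO serum/LIF, 1270 in WT F/A and 662 in Cripto KO F/A. Of 8 that passed the filter, 1 was higher and 4 were lower in KO than in WT F/A, beside 4.03% and 5.39% of all genes. Fgf5, the growth factor of the primed epiblast, had 3, 1, 2206 and 394 counts in WT serum/LIF, Cripto KO serum/LIF, WT F/A and Cripto KO F/A.

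Lineage markers were counted in the same way. Of all genes, 22.1% were higher and 21.0% lower in F/A in WT cells, and 19.8% and 19.4% in KO cells. The lists share Eomes and Hand1 (trophoblast and streak), Gata6 (streak and endoderm), Foxa2 (primed and endoderm), Pax3 (neural and neural crest) and T (primed and streak), so they are not independent. The 9 markers of primitive streak and mesoderm summed to 9.30 and 5.84 cpm in WT and KO serum/LIF and to 791 and 609 in WT and KO F/A, with 9 of 9 higher in WT and 8 of 9 in KO cells. The 8 endoderm markers summed to 15.9 and 13.1 in serum/LIF and to 261 and 250 in F/A. Of 6 that passed the filter, 5 were higher in each genotype and 1 was lower in KO cells, and Afp was at 0 in all libraries. The 8 trophoblast markers summed to 15.9 and 6.33 in serum/LIF and to 218 and 250 in F/A, with 6 of 7 higher and 1 lower in each genotype. Elf5 had 2 counts in WT F/A and 0 in every other library. In F/A 3 of the 7 were higher and 2 lower in KO than in WT cells, beside 4.03% and 5.39% of all genes. Cdx2 had 104 and 674 counts in WT and KO F/A, Hand1 196 and 1730, and Eomes 1963 and 422. For 6 neural markers the sums were 92.2 and 104 in serum/LIF and 327 and 311 in F/A. Of 5 that passed the filter, 3 were higher and 2 lower in WT cells, and 2 higher and 2 lower in KO cells. Nes gave most of the F/A sums, with 293 and 267 cpm in WT and KO F/A and 12.5 and 12.7 in serum/LIF. Tubb3 had log2 ratios of −2.35 and −2.16 in WT and KO cells, and Neurod1 −4.31 and −4.03. The 7 fibroblast markers summed to 124 and 130 in serum/LIF, 82.7 in WT F/A and 236 in Cripto KO F/A. Of 6 that passed the filter, 4 were higher and 0 lower in KO than in WT F/A, beside 4.03% and 5.39% of all genes. The part of such cells in the levels of the 10 genes was not tested.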

How the data were processed

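Total RNA of 4 libraries, 1 per group, was sequenced by the study. Per the study's methods and the submitters' processing notes, paired-end reads were aligned to mm9 (NCBIM37) with TopHat2 2.0.13, guided by Ensembl release 67, and counted per gene with HTSeq 0.6.1p1. The strand setting is not given in the sources used here. The authors deposited raw counts per gene and a table of full quantile-normalised counts (a signal, made by the authors with normalize.quantiles of preprocessCore) for genes that passed a filter at 1 cpm. Quantile normalisation gives every library the same distribution of values. Recomputed from the raw counts, 100% of the normalised values came out equal within 1e-06.

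Ratios used the normalised values, with 0 replaced by 0.5. Intervals (95%, Clopper-Pearson, scipy 1.17.1) used raw counts. The fold call and the interval were tested on simulated data. The study called genes with a simulation-based probability, which was not computed here. Positions came from the Ensembl 65 annotation of NCBIM37, which named 98.9% of genes. Levels per kb used the median transcript length. Copies were searched with BLAST 2.17.0. Alternatives used edgeR 4.0.16 and DESeq2 1.42.0 for scaling only. The genes and lists were chosen with earlier results of these data known. Beyond the members, list genes are named when they changed at least 2-fold with 200 raw counts in the higher library, at most 4 per list and comparison, plus the 5 genes most alike to each core factor, the flanking genes, and some list genes picked after their values were seen.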

Additional observations from a re-analysis of the deposited data

Results flagged for a closer look

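Foxd3 differed between the genotypes in opposite directions in the cultures. Its log2 ratio of Cripto KO to WT was −3.67 in F/A (2 against 30 raw counts) and 0.84 in serum/LIF (1238 against 736). The 2 counts are under the detection limit of 6, and with 5 added to every value the F/A ratio was −2.29. With 1 library per group, the difference between the cultures was not tested.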

How the results depend on the processing

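The counts of members past the threshold were recomputed under 10 alternatives. Of 88 recomputed counts, 83 stayed within 1.5 times the reported value and none of the calls changed direction. The other 5 came from moving the threshold itself. Within 1.5 times, the members whose log2 change differed by at least 1 between the genotypes went from 3 to 2. This happened with library totals, edgeR and DESeq2 scaling, 5 added or the running median over transcript length subtracted. Dppa5a was the member that fell under 1, to 0.79 with library totals. At 1.5-fold, 5 members were lower in KO than in WT cells in F/A, and 2 were higher and 1 lower in serum/LIF. At 3-fold, 0 members were higher in F/A than in serum/LIF in KO cells, and 1 was lower in KO than in WT cells in F/A. For single members, 360 of 384 recomputed log2 ratios moved by less than the counting error. Leaving out the filter, or asking for a mean of at least 50 raw counts, could not change a member's value. Both tallies include such rows, whose outcome was fixed in advance. Several values moved when the running median over transcript length was subtracted. Among them were Pou5f1, to −3.07 in WT cells and to −0.90 for KO against WT in F/A, and Sall4, to −0.48 in WT cells. The running median was read at the median length, 496 bases for Pou5f1 and 773 for Sall4, where the longest transcripts have 1347 and 5073. The subtraction was not repeated at the longest length, so these moves depend on the length taken. Lin28a in F/A, KO against WT, lay between −0.04 and 0.11 over the scalings, and Sall4 in serum/LIF between −0.03 and 0.03. With 5 added to every value, ratios that rest on a few F/A counts came closer to 0 by over 1.5 times: Foxd3 to −7.40 in KO cells and −2.29 in F/A, Dppa5a to −10.52 in WT and −9.66 in KO cells, and Dppa2 to −7.05 in WT cells. The filter left the values of the members as they were, because normalisation came before it. No paired analysis was possible because each group has 1 library, which also leaves no replicate to leave out. Counting error covers depth only, so it says nothing of the spread between cultures.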
